A study of Homo sapiens with 8 samples.

Results

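Selenoproteins carry selenocysteine, an amino acid that is inserted at a UGA codon which in other mRNAs ends translation. A stem-loop in the 3′ untranslated region, the SECIS element, recruits the binding protein SECISBP2 and a dedicated elongation factor, EEFSEC, which delivers the selenocysteine tRNA so that the ribosome reads through. Many selenoproteins are redox enzymes, among them the glutathione peroxidases and the thioredoxin reductases, and GPX4 is known for protecting neuroblastoma and other cells from death by lipid peroxidation. Described here are 10 selenoprotein genes of 60651 genes in a table of ribosome footprint levels, chosen by symbol (GPX1, GPX4, TXNRD1, TXNRD2, SELENOH, SELENOK, SELENOT, SELENOW, SELENOF and SEPHS2).

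The footprints came from IMR32, an established human neuroblastoma line with amplified MYCN, labelled as wild type. There were 4 libraries of cells treated with CR31B, a rocaglate, related to silvestrol, that binds the RNA helicase eIF4A, and 4 of cells given the solvent DMSO (0.1%). Treatment lasted 6 h, cycloheximide was added before harvest in both groups, and protected fragments of 28 to 30 nt were isolated. The labels call the replicates biological and give no dose of CR31B. All results are from this 1 cell line, and no matched RNA-seq is used here, so more mRNA and more ribosomes per mRNA cannot be told apart. Values are TPM, which are scaled for gene length and to the same sum in each library, and the read depth behind a value is unknown. A higher or lower value is therefore relative to the total of its library, and a change in that total would not show. A value with ± is the mean and SD of 4 libraries.

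The libraries fitted the label of the line. Of 11 markers of adrenergic neuroblastoma, 10 reached a mean of 1 TPM, and TH, at 0.907 TPM, did not. Their summed level was 1298 to 1882 TPM with CR31B against 1219 to 1462 TPM with DMSO. Of 8 mesenchymal and Schwann markers only FN1 reached 1 TPM, and PRRX1 and SOX10 were listed at 0 in each library. These summed to 5.02 to 8.94 TPM with CR31B against 5.51 to 8.52 TPM with DMSO, and 4 blood markers summed to at most 0.06 TPM. The share of TPM in protein-coding genes was 51.8% to 61.3%, and CR31B replicate 1 had the highest.

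The label of the gene group was checked against GENCODE release 29 (GRCh38), which marks selenocysteine codons. All 10 genes have 1 such codon in the transcript used, and it reads TGA in each. The coding sequence around it is shown because the recoded codon is what the genes share and because its place differs between them. The lines run 5′ to 3′, with the recoded codon in capitals. Where the coding sequence ends within the window, the line ends with the true stop codon.
GPX1: aatgtggcgtccctcTGAggcaccacggtc
GPX4: aacgtggcctcccagTGAggcaagaccgaa
TXNRD1: ctccaggctggctgcTGAggttaa
TXNRD2: acggtgacaggctgcTGAgggtaa
SELENOH: gagcattgcactagcTGAcgcgtctatggg
SELENOK: ccaatggctggtggaTGAggaaggtaa
SELENOT: cagatttgtgtttccTGAggttataggcgg
SELENOW: gtttattgtggcgctTGAggctacaagtcc
SELENOF: cttgaagtttgtggaTGAaaattgggaagg
SEPHS2: tccggcatgaagggcTGAggctgcaaggtc
The base after the codon is G in 8 genes, C in SELENOH and A in SELENOF. In TXNRD1 and TXNRD2 the recoded codon is the last but 1 sense codon, number 498 of 499 and 523 of 524, and SELENOK has 2 residues after it. The codon lies early in SEPHS2 (codon 60 of 448), SELENOW (13 of 87), GPX1 (49 of 203) and SELENOT (49 of 195). It lies further in for SELENOH (44 of 122), GPX4 (73 of 197) and SELENOF (96 of 165). In GPX1 it is at chr3:49358132-49358134 on the minus strand, in exon 1 of 2, and in TXNRD1 at chr12:104348413-104348415 on the plus strand, in exon 15 of 15. The deposited values are 1 number per gene, so they do not show how many ribosomes lay before or after the UGA.

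Footprint levels in DMSO spanned 83.9-fold between the highest and the lowest of the 10 genes. SELENOF, a protein of the endoplasmic reticulum that binds the folding sensor UGGT, was highest at 185 ± 17.4 TPM, and all its libraries lay above those of GPX1 at 115 ± 21.9 TPM. TXNRD1 followed at 76.9 ± 7.53 TPM and GPX4 at 61.5 ± 6.48 TPM. SELENOK was at 49.5 ± 4.21 TPM and SELENOH at 44.1 ± 10.5 TPM. A step of 5.13-fold separated SELENOH from SELENOW at 8.61 ± 1.31 TPM and SELENOT at 8.39 ± 1.53 TPM. SEPHS2 was at 4.77 ± 0.474 TPM and TXNRD2 at 2.21 ± 0.255 TPM. Between neighbours in this order the DMSO libraries overlapped for GPX1 and TXNRD1, SELENOK and SELENOH, and SELENOW and SELENOT, and for no other neighbours. In CR31B the order was the same, except that GPX4 stood above TXNRD1 and SELENOT above SELENOW, and the libraries of both of these neighbours overlapped.

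**Figure D1:**
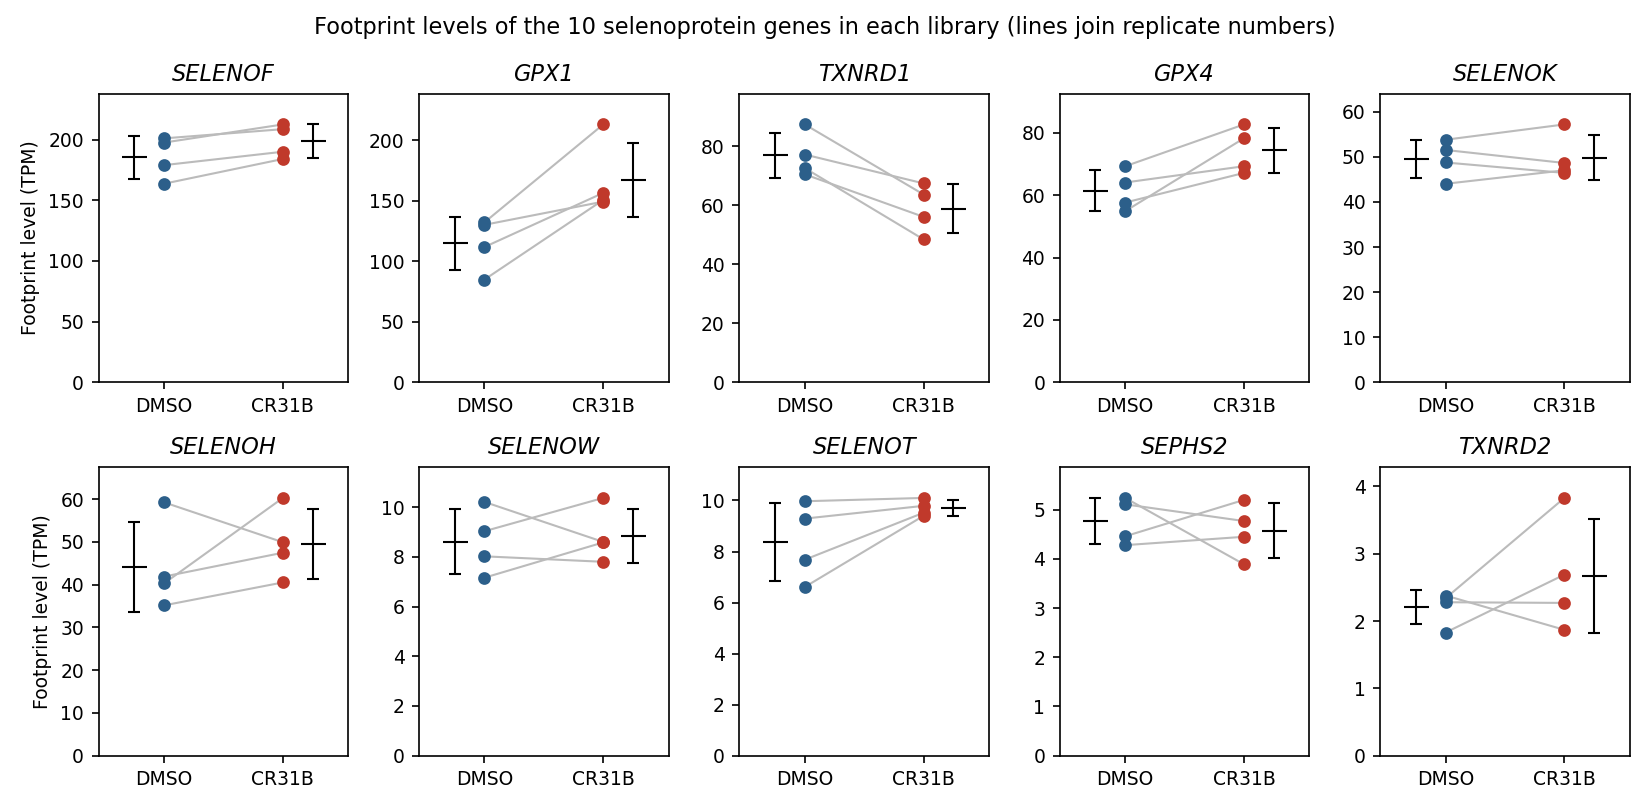
Footprint level in TPM (y axis, from 0) of each of the 10 selenoprotein genes in the 4 DMSO libraries (blue) and the 4 CR31B libraries (red). Grey lines join libraries with the same replicate number, and black bars are the mean ± SD of each group. The groups do not overlap for GPX1, from 84.85 to 132.2 TPM in DMSO and from 149.4 to 213.27 TPM in CR31B, and for TXNRD1, from 70.44 to 87.35 and from 48.37 to 67.36 TPM.

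The question of the comparison was which footprint levels differ after 6 h of the eIF4A inhibitor. None of the 10 genes passed limma's test at an adjusted p under 0.05 over the 11778 genes tested, where 7.46% passed (3.45% higher and 4.02% lower in CR31B). All 10 genes were tested, and 3 (GPX1, TXNRD1 and GPX4) had an unadjusted p under 0.05, which 23.4% of all genes did. The median log2 fold change of the 10 was 0.14, against 0.029 over all tested genes, and 8 of the 10 estimates were above 0, as were 54.1% of all. For GPX1 and TXNRD1 the groups did not overlap in TPM. This was so for 8.07% of all genes in the upward direction and 8.14% in the downward direction.

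The labels do not say what a shared replicate number marks. Numbers were treated as pairs in an alternative fit, because departures from group means correlated between same-numbered libraries (0.105 to 0.333 across genes). The pairing was thus taken from these same data. It was weakest for replicate 4, where 0.105 was below the 0.134 of CR31B replicate 4 with DMSO replicate 1. With this replicate block, 1 of the 10 genes was higher, GPX1, and 1 was lower, TXNRD1. Over all genes 5.77% were then called higher and 6.56% lower, and neither gene was called without the block.

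Among the peroxidases, GPX1, the cytosolic enzyme that reduces hydrogen peroxide with glutathione, had the largest difference of the 10. It stood at 157, 149, 213 and 151 TPM under CR31B (replicates 1 to 4 in order) and at 112, 130.2, 132 and 84.9 TPM under DMSO. Each CR31B library lay above each DMSO library, and CR31B replicate 3 was the highest of the 8. The means were 168 ± 30.7 and 115 ± 21.9 TPM. This is a log2 fold change of 0.55 (95% confidence interval 0.17 to 0.92, SE 0.17), a factor of 1.46. Its limma adjusted p was 0.0797 and its exact permutation p was 0.0286, the smallest that 4 against 4 libraries allow. GPX1 was higher in CR31B in 4 of 4 pairs, and the block gave a limma adjusted p of 0.0268. That call was lost when replicate pair 1, 3 or 4 was left out (limma adjusted p of 0.0791, 0.0709 and 0.0995) and was kept without pair 2 (0.0347) and after rescaling over protein-coding genes (0.0236). Without the block the GPX1 adjusted p ran from 0.0644 to 0.217 over the alternatives. The processed copies GPX1P1 and GPX1P2 were at means of at most 0.493 and 0.02 TPM.

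GPX4, which reduces lipid hydroperoxides within membranes, stood at 67.2, 82.7, 78.3 and 69.3 TPM under CR31B (replicates 1 to 4 in order). Under DMSO it was at 57.6, 69.3, 54.9 and 64.07 TPM. It was higher in CR31B in 4 of 4 pairs, and the groups overlapped. The means were 74.4 ± 7.36 and 61.5 ± 6.48 TPM, with a log2 fold change of 0.27 (95% confidence interval 0.0091 to 0.53, SE 0.12). The limma adjusted p was 0.200 (0.109 with the replicate block) and the exact permutation p was 0.0571. The log2 ratio of GPX1 to GPX4, which does not depend on the scaling of a library, was 1.16 ± 0.246 with CR31B against 0.885 ± 0.357 with DMSO (exact permutation p of 0.286). This was 1 of 3 ratios of related genes chosen after the values were seen, and its p adjusted over the 3 ratios was 0.286.

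TXNRD1, the cytosolic reductase that keeps thioredoxin reduced, was the gene with the largest difference downward. It stood at 48.4, 56.02, 63.6 and 67.4 TPM under CR31B (replicates 1 to 4 in order) and at 72.6, 70.4, 87.3 and 77.2 TPM under DMSO. In TPM, all CR31B libraries lay below all DMSO libraries. After rescaling over protein-coding genes the groups overlapped, with CR31B replicate 4 above DMSO replicate 1. The means were 58.8 ± 8.42 and 76.9 ± 7.53 TPM. This is a log2 fold change of -0.39 (95% confidence interval -0.67 to -0.099, SE 0.13), a factor of 0.765. The limma adjusted p was 0.103 and the exact permutation p was 0.0286. Without the block the TXNRD1 adjusted p ran from 0.0844 to 0.208 over the alternatives, and was 0.206 after rescaling over protein-coding genes. The block gave a limma adjusted p of 0.0411. It was 0.0726 when values were also rescaled over protein-coding genes, and from 0.0743 to 0.142 with any 1 of the 4 pairs left out, so the TXNRD1 call held in the plain block fit alone.

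TXNRD2, the mitochondrial thioredoxin reductase, was at 1.87 to 3.83 TPM with CR31B against 1.83 to 2.38 TPM with DMSO. The log2 fold change of TXNRD2 was 0.17 (95% confidence interval -0.22 to 0.56, limma adjusted p of 0.620), with CR31B replicate 3 the highest library. The log2 ratio of TXNRD1 to TXNRD2 was 4.50 ± 0.457 with CR31B against 5.12 ± 0.184 with DMSO (exact permutation p of 0.0857, adjusted over the 3 ratios 0.129).

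**Figure D2:**
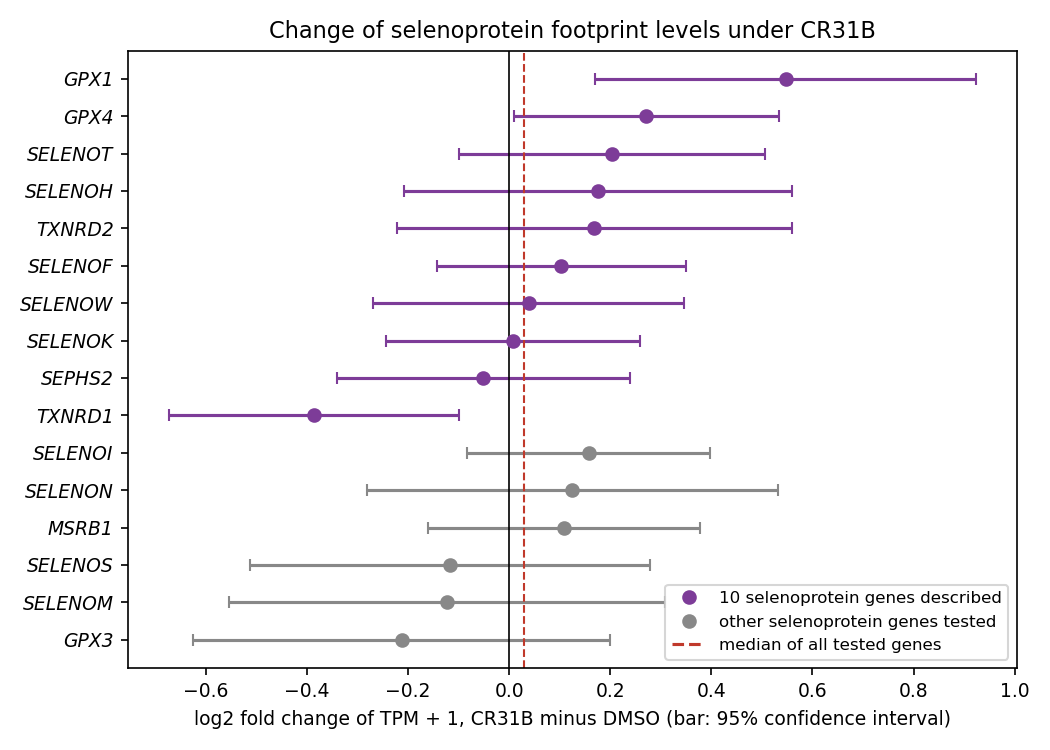
The log2 fold change of TPM + 1 (x axis, CR31B minus DMSO) of the 10 selenoprotein genes (purple) and of 6 other selenoprotein genes that were tested (grey), with 95% confidence intervals from limma and the median of all tested genes as a dashed line at 0.029. GPX1 at 0.55 and TXNRD1 at -0.39 lie at the ends, and the intervals of GPX1, GPX4 and TXNRD1 do not reach 0.

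None of the 3 members of the endoplasmic reticulum, SELENOF, SELENOK and SELENOT, passed the test in either fit. SELENOF stood at 213, 209, 184 and 190.04 TPM under CR31B (replicates 1 to 4 in order) and at 198, 201, 164 and 179 TPM under DMSO. It was higher in 4 of 4 pairs, by 0.053 to 0.17 on the log2 scale, and the groups overlapped widely. Its log2 fold change was 0.10 (95% confidence interval -0.14 to 0.35, limma adjusted p of 0.632). SELENOK, a membrane protein that works with the palmitoylating enzyme ZDHHC6, was at 46.5 to 57.2 TPM with CR31B against 44.04 to 53.8 TPM with DMSO. Its log2 fold change was 0.0073 (95% confidence interval -0.24 to 0.26), and its sign turned under other scalings. SELENOT, a thioredoxin-like protein, was at 9.40 to 10.1 TPM with CR31B against 6.61 to 9.97 TPM with DMSO. SELENOT had a log2 fold change of 0.20 (95% confidence interval -0.10 to 0.51, limma adjusted p of 0.411), with CR31B higher in 4 of 4 pairs. The SELENOT value is uncertain. Its processed copy SELENOTP1 was listed higher than the gene itself, at 14.6 ± 3.80 TPM with CR31B against 15.3 ± 3.54 TPM with DMSO, and SERP1, whose exons overlap SELENOT on the opposite strand, averaged 53.1 TPM. Whether counting used strand is not given in the sources used here.

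Of the small thioredoxin-fold proteins, SELENOH, a nucleolar protein, was at 40.5 to 60.3 TPM with CR31B against 35.1 to 59.2 TPM with DMSO. Its log2 fold change was 0.18 (95% confidence interval -0.21 to 0.56, limma adjusted p of 0.594), and DMSO replicate 4 lay above 3 of the 4 CR31B libraries. SELENOW was at 7.80 to 10.4 TPM with CR31B against 7.16 to 10.2 TPM with DMSO, a log2 fold change of 0.038 (95% confidence interval -0.27 to 0.35), which turned sign after quantile normalization. GPX1, SELENOH and SELENOW are known as selenoproteins whose mRNAs fall early when selenium is short. Their log2 fold changes of 0.55, 0.18 and 0.038 had intervals that overlapped.

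SEPHS2, which makes the selenophosphate used to build selenocysteine and is itself a selenoprotein, was at 3.89 to 5.20 TPM with CR31B against 4.28 to 5.24 TPM with DMSO. SEPHS2 had a log2 fold change of -0.051 (95% confidence interval -0.34 to 0.24, limma adjusted p of 0.863). Its paralog SEPHS1, which has no selenocysteine, fell. SEPHS1 stood at 15.4, 13.7, 10.00 and 13.03 TPM under CR31B (replicates 1 to 4 in order) and at 21.6, 22.1, 20.9 and 23.5 TPM under DMSO, with no overlap. The difference was -0.73 on the log2 scale (limma adjusted p of 0.0109, SE 0.13). The log2 ratio of SEPHS1 to SEPHS2 lay between 1.36 and 1.63 in the CR31B libraries and between 1.99 and 2.37 in the DMSO libraries, and was lower in 4 of 4 pairs. Its exact permutation p of 0.0286 is the smallest possible, and adjusted over the 3 ratios it was 0.0857.

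Summed, the 10 genes took 0.0625% ± 0.00337 of TPM in CR31B and 0.0556% ± 0.00203 in DMSO. The CR31B libraries, at 0.0599% to 0.0674%, all lay above the DMSO libraries, at 0.0535% to 0.0584%. This separation rested on GPX1, since the groups overlapped when GPX1 was left out of the sum. It also held only for the share of all TPM. Protein-coding genes took 61.3% of TPM in CR31B replicate 1 and 54.6% in DMSO replicate 2. As a share of protein-coding TPM, CR31B replicate 1 lay below DMSO replicate 2, so the groups overlapped. Most of this sum was SELENOF and GPX1: of the TPM of the 10 genes, SELENOF took 31.9% ± 3.37 in CR31B and 33.3% ± 2.72 in DMSO, and GPX1 took 26.7% ± 3.37 and 20.6% ± 3.47. TXNRD1 took 9.43% ± 1.36 in CR31B and 13.9% ± 1.59 in DMSO. The share of all 10 genes is a description without a test.

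The other 15 human selenoprotein genes were taken as a list. Of these, 6 reached a mean of 1 TPM and none passed the test in either fit. SELENOI, an enzyme of phosphatidylethanolamine synthesis, was at 46.7 ± 4.37 TPM with CR31B against 41.7 ± 2.53 TPM with DMSO (log2 fold change 0.16). MSRB1, a methionine sulfoxide reductase, was at 37.3 ± 2.33 and 34.8 ± 5.12 TPM (0.11), and SELENON at 1.78 ± 0.587 and 1.52 ± 0.342 TPM (0.12). SELENOS, which links to the retrotranslocation machinery of the endoplasmic reticulum, was at 38.4 ± 8.06 and 41.6 ± 8.43 TPM (-0.12). SELENOM was at 16.6 ± 3.11 and 18.5 ± 5.12 TPM (-0.12), and GPX3, a secreted peroxidase, at 5.11 ± 1.60 and 5.91 ± 0.505 TPM (-0.21). The remaining 9 included SELENOP, the plasma carrier of selenium, DIO1 and GPX6, which were listed at 0 in all 8 libraries.

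The machinery that makes and inserts selenocysteine was a list of 17 genes, of which 16 were tested. It also held LRP8, which takes up selenoprotein P. There were 2 that rose and 1 that fell, SEPHS1, beside 3.45% higher and 4.02% lower over all genes. The median log2 fold change was 0.20. With the replicate block 3 were called higher and 1 lower, beside 5.77% and 6.56% over all genes. The added call was FTSJ1 (limma adjusted p of 0.0385). SARS1, the seryl-tRNA synthetase that charges the selenocysteine tRNA with serine, rose from 224 ± 4.62 to 329 ± 39.5 TPM (log2 fold change 0.55, limma adjusted p of 0.0166). This call was lost without DMSO replicate 4 (0.0535). TRIT1, which adds the isopentenyl group to the anticodon loop, rose from 11.4 ± 1.77 to 17.6 ± 2.99 TPM (0.59, limma adjusted p of 0.0429). The TRIT1 call was lost without any 1 of 7 of the 8 libraries and in 8 of 17 alternatives in all. SECISBP2 was at 2.68 to 3.71 TPM with CR31B against 2.86 to 3.55 TPM with DMSO, with a log2 fold change of 0.049 (95% confidence interval -0.25 to 0.35). EEFSEC was at 4.32 ± 1.27 and 3.28 ± 0.543 TPM, with a log2 fold change of 0.29 (95% confidence interval -0.13 to 0.72). The kinase PSTK (0.18) and the synthase SEPSECS (0.23), which convert the serine on that tRNA, did not pass. SARS1 also charges all serine tRNAs, so its level is not particular to selenocysteine.

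Partners of the thioredoxin reductases were tested as 15 genes, and none passed. Thioredoxin, TXN, was at 285 ± 27.9 TPM with CR31B against 332 ± 35.4 TPM with DMSO (log2 fold change -0.22, limma adjusted p of 0.321). The peroxiredoxins PRDX1 to PRDX6 had log2 fold changes from -0.15 to 0.089. The median over these partners was 0.028. In a list of 7 relatives of selenoproteins that lack selenocysteine, 5 were tested, with a median of -0.14, and only SEPHS1 passed.

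A list of the glutathione system, which supplies the peroxidases, and of other genes of lipid peroxide defence had 19 genes tested. Of these 2 rose and 3 fell, with a median log2 fold change of -0.081, beside 3.45% higher and 4.02% lower over all genes. With the replicate block 2 were called higher and 5 lower, beside 5.77% and 6.56% over all genes. The added calls were GLRX and ACSL4. Both subunits of glutamate-cysteine ligase fell: GCLC from 16.5 ± 3.91 to 9.76 ± 1.14 TPM (log2 fold change -0.68, limma adjusted p of 0.0299) and GCLM from 12.9 ± 1.75 to 7.30 ± 0.510 TPM (-0.74, limma adjusted p of 0.00789). FDFT1, squalene synthase, which is no glutathione enzyme, fell from 152 ± 16.5 to 90.1 ± 15.3 TPM (-0.76, limma adjusted p of 0.0127). CHAC1, an enzyme that degrades glutathione and a known ATF4 target, rose from 1.06 ± 0.300 to 5.21 ± 0.827 TPM (1.59, limma adjusted p of 0.000673). SLC3A2, the heavy chain of the cystine transporter, rose from 115 ± 10.2 to 162 ± 26.3 TPM (0.49, limma adjusted p of 0.0488). That SLC3A2 call was lost without any 1 of the 8 libraries, and the GCLC call without any 1 of 5 of them, CR31B replicates 2, 3 and 4 and DMSO replicates 2 and 4. Glutathione reductase, GSR, was at 31.7 ± 2.74 TPM with CR31B against 35.4 ± 3.50 TPM with DMSO (-0.15, limma adjusted p of 0.468).

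TXNRD1 is a known target of the transcription factor NRF2, and of 12 tested genes in the KEAP1-NRF2 list none passed, with a median of -0.020. Of the 12 estimates 5 were above 0. GCLC and GCLM, which are also known NRF2 targets and stand in the preceding list, fell. Other targets went both ways, and none of the following passed. SLC7A11 (log2 fold change 0.41) and SRXN1 (0.17), from other lists, and ABCC1 (0.19) were higher in CR31B in 4 of 4 pairs. HMOX1 (-0.22) and TKT (-0.21) were lower in 4 of 4 pairs. With the replicate block, which called 12.3% of all genes, 1 gene of the KEAP1-NRF2 list passed. It was KEAP1, the adaptor that marks NRF2 for degradation, named after its value was seen. KEAP1 was at 37.2 ± 5.10 TPM with CR31B against 52.0 ± 6.69 TPM with DMSO (log2 fold change -0.47, limma adjusted p of 0.0605, and 0.0155 with the block). NFE2L2, which encodes NRF2, was at 34.4 ± 7.07 and 25.4 ± 0.873 TPM (0.41, limma adjusted p of 0.115), and the NRF2 target NQO1 was at 31.1 ± 9.31 and 30.5 ± 3.99 TPM (log2 fold change -0.0064, opposite in sign to the difference of the means).

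Among 9 genes that work with SELENOK, SELENOF and SELENOS in the endoplasmic reticulum, 1 rose and 1 fell, with a median of -0.27. Over all genes 3.45% were called higher and 4.02% lower. With the replicate block none of the 9 were called higher and 2 lower, DERL1 and SEL1L, beside 5.77% and 6.56% over all genes. DERL1, a channel protein of endoplasmic reticulum degradation, fell from 73.2 ± 2.13 to 51.8 ± 6.29 TPM (-0.50, limma adjusted p of 0.0258). UGGT2, a glucosyltransferase of the kind SELENOF binds, rose from 0.927 ± 0.126 to 1.79 ± 0.236 TPM (0.53, limma adjusted p of 0.0488, and 0.0604 with the replicate block). Its DMSO mean lay under the filter of 1 TPM, so it was tested only through its CR31B level. Its paralog UGGT1 was at 37.0 ± 9.26 TPM with CR31B against 33.3 ± 6.96 TPM with DMSO (0.14, limma adjusted p of 0.717). The DERL1 call was lost without any 1 of 6 libraries (all but CR31B replicates 1 and 3), and the UGGT2 call without any 1 of the 8.

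**Figure D3:**
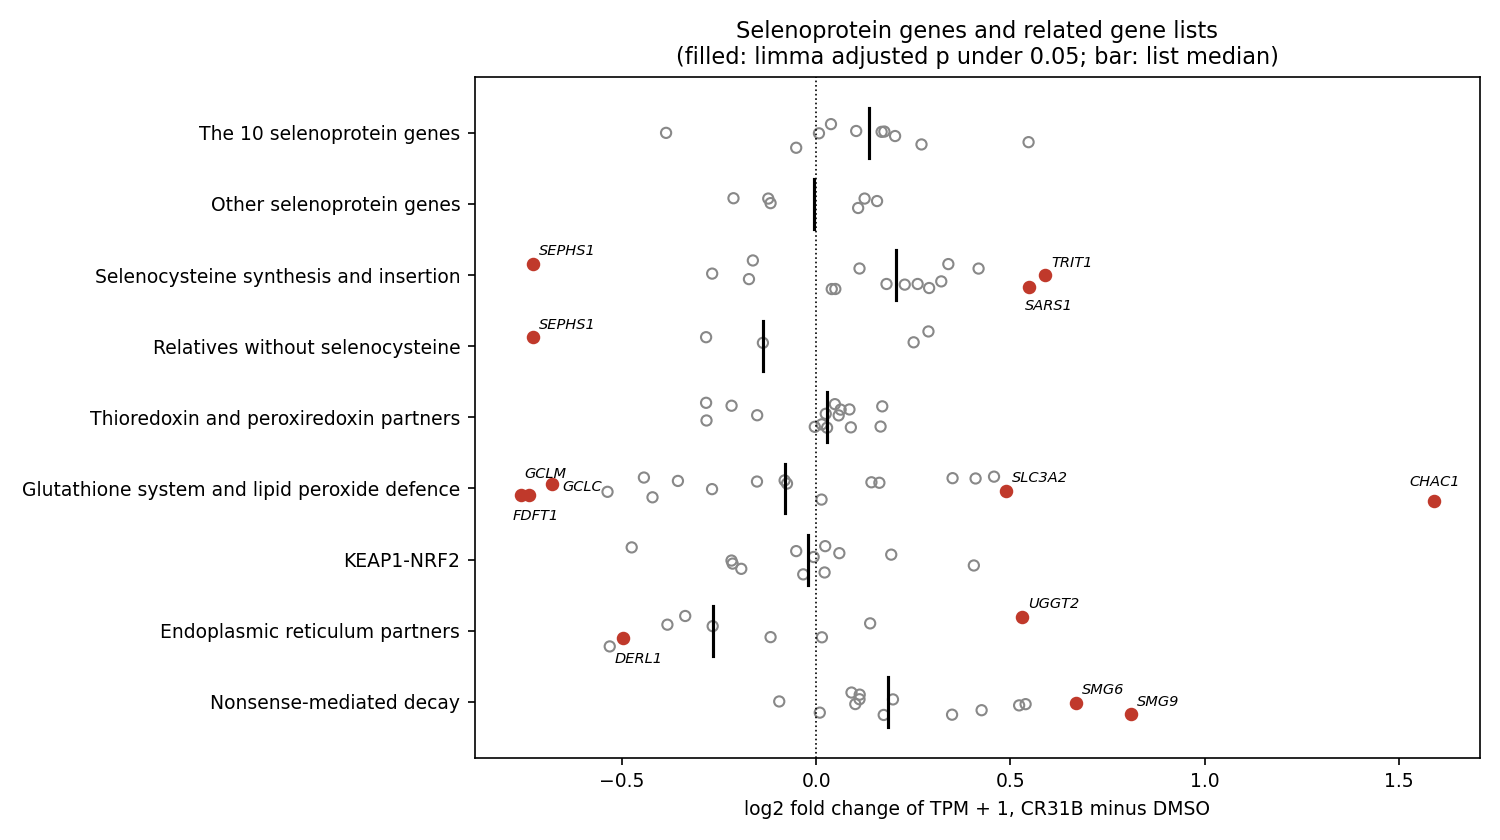
The log2 fold change of TPM + 1 (x axis, CR31B minus DMSO) of each tested gene in the 10 selenoprotein genes and 8 related lists (rows), with vertical scatter only to separate points. Filled points passed limma's adjusted p of 0.05 and black bars are list medians. No selenoprotein gene is filled, and CHAC1 at 1.59 is the farthest point.

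Features that the choice of genes did not use were set beside these values, as a description without a test. The 7 genes with the UGA in the first 60% of the coding sequence had log2 fold changes from -0.051 to 0.55, with a median of 0.18. The 3 with it in the last 10%, TXNRD1, TXNRD2 and SELENOK, had values of -0.39, 0.17 and 0.0073. The annotated 5′ leaders, the part that eIF4A helps to unwind, ran from 24 nt in SELENOH to 574 nt in TXNRD1. Their G+C content ran from 46.5% in SELENOF to 74.8% in GPX4. The 3 leaders under 60% G+C were those of SELENOF, TXNRD1 (50.2%) and SEPHS2 (52.0%), with log2 fold changes of 0.10, -0.39 and -0.051. Across the 10 genes Pearson's r with the log2 fold change was 0.61 for leader G+C, -0.56 for transcript length, -0.54 for leader length and -0.45 for UGA position (Spearman's rho 0.61, -0.39, -0.55 and -0.16). These points are genes of the same libraries, and the transcript used in IMR32 was not measured here.

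**Figure D4:**
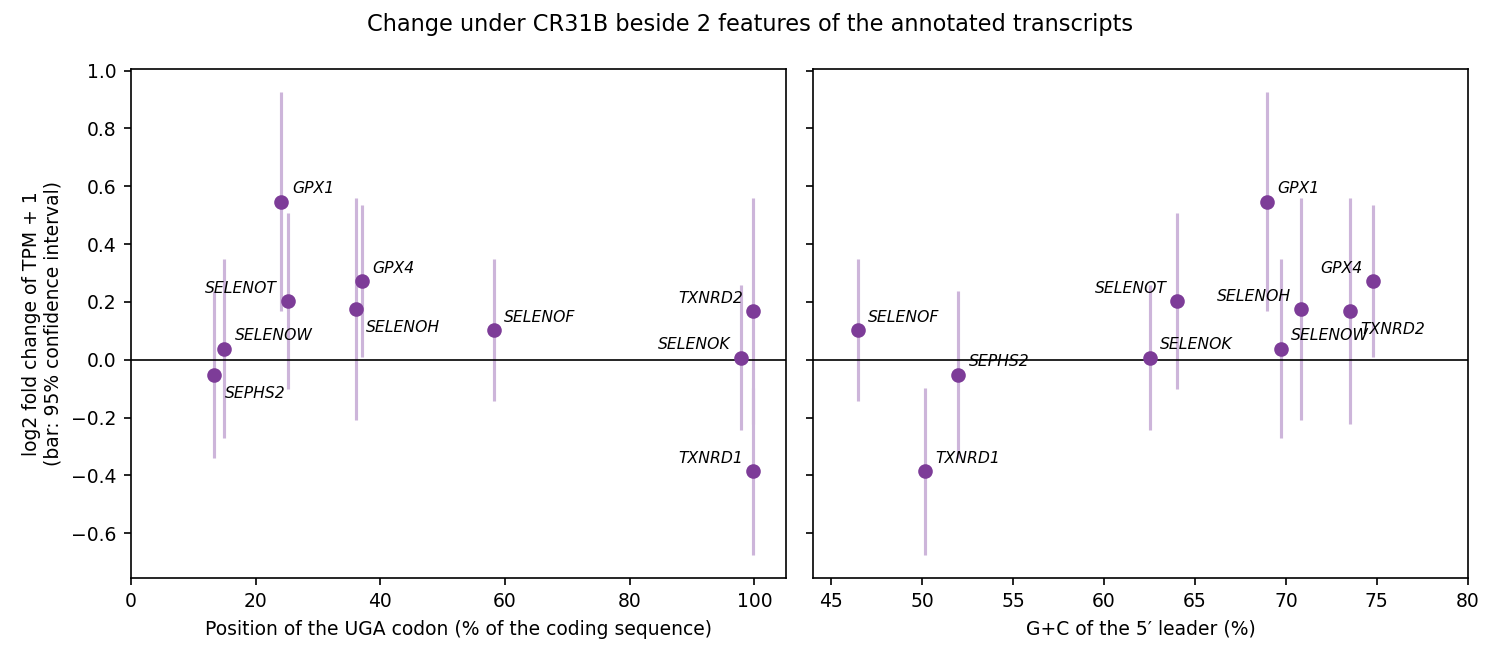
The log2 fold change of TPM + 1 (y axis, CR31B minus DMSO, bars are 95% confidence intervals) of the 10 selenoprotein genes against the position of the UGA codon as a percent of the coding sequence (left) and the G+C content of the annotated 5′ leader in percent (right). TXNRD1, with the UGA at 99.8% and a leader of 50.2% G+C, is the lowest point in both panels, and GPX1 the highest.

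GPX1 had the largest absolute difference of the 10, and the genes with the most similar profile over the 8 libraries were sought among 5607 others with a mean of at least 10 TPM. They were MAGEF1 (Pearson's r of 0.97), BOLA3-DT (0.97) and MRPS16 (0.96), whose log2 fold changes were 0.50, 0.70 and 0.61. Since the treatment is part of the profile, genes that differ between the groups in the same direction rank high by construction.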

How the data were processed

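The authors deposited 1 table of TPM for 60651 genes in 8 ribosome profiling libraries. Per the submitters' processing notes the tools were cutadapt 3.2, Bowtie2 2.3.4.1, STAR 2.7.1a, RSEM 1.2.28 and DESeq2 1.32.0, with builds hg38 and GRCh38. Their roles, the annotation, the strand setting and the handling of multi-mapping reads are not given in the sources used here. Libraries were sequenced in 2 runs, and since no label ties a library to a run, no run effect could be computed. Columns were matched to libraries by description, and symbols, found for 60481 genes, came from a table of gene names.

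The 11778 genes whose mean reached 1 TPM were fitted as log2(TPM + 1) with limma 3.58.1 in R 4.3.3 (eBayes with a trend, treatment only), with Benjamini-Hochberg adjustment over all genes tested. Fold changes on this scale understate the change of low genes. The fit was tested on simulated data. Single values had an exact two-sided permutation test (70 assignments). After group means were removed, same-numbered libraries correlated across genes at 0.105 to 0.333 and others at -0.206 to 0.134, so the number served as a replicate block in an alternative fit. Selenocysteine codons, leaders and exon overlaps came from GENCODE 29 (GRCh38), using, among transcripts with an annotated selenocysteine codon, the best APPRIS rank and then the longest coding sequence. Alternatives changed the pseudocount, filter, scaling, block or trend, or left out a library.

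The genes and lists were chosen with earlier results of these data known. Named were the 10 genes, the tested other selenoprotein genes and, from each list, up to 3 called genes per direction. Others named for context were background or chosen after their values were seen. Other tools were pandas 2.3.3, matplotlib 3.10.9, SciPy 1.17.1 and NumPy 2.4.6 under Python 3.11.15.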

Additional observations from a re-analysis of the deposited data

Results flagged for a closer look

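Of 58 groups of 4 libraries (named genes and the summed share, each group apart), 3 had 1 library set well apart from its group, where about 1 in 20, or 2.9, would be by chance. The measure was the distance to the closest library over the whole range. For GPX1, CR31B replicate 3 had 213.27 TPM while the remaining CR31B libraries had 149.4 to 156.61 TPM. Without it the GPX1 log2 fold change was 0.43, with a limma adjusted p of 0.166. For CHAC1, DMSO replicate 1 had 1.51 TPM while the remaining DMSO libraries had 0.88 to 0.96 TPM. For SLC3A2, CR31B replicate 1 had 201.55 TPM and the remaining CR31B libraries 145.55 to 152.54 TPM, and without it the SLC3A2 call was lost (limma adjusted p of 0.0699).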

How the results depend on the processing

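With the replicate block 1453 genes were called (680 higher, 773 lower), against 879 (406 and 473) without it, and without a filter on low values 442 (181 and 261). Leaving out 1 library gave 404 to 785 genes (197 to 395 higher, 207 to 487 lower), fewest without DMSO replicate 4. Of the 10 selenoprotein genes, 1 higher and 1 lower were called with the block, 1 higher with the block and rescaling over protein-coding genes, and 0 to 1 higher with the block and a pair left out. No other alternative called any of them, with 0 in each direction when 1 library was left out. The difference in their summed share was 0.00686 percentage points of all TPM. As a share of protein-coding TPM alone, a smaller total, it was 0.015 percentage points, and the groups overlapped. These differences have unlike totals, so their sizes cannot be compared. Without the filter 3 genes of the glutathione and lipid peroxide list, 1 endoplasmic reticulum partner and 1 decay gene were called. The endoplasmic reticulum count was also 1 with a pseudocount of 0.1. The KEAP1-NRF2 list had 1 call with a mean of at least 10 TPM, with median-of-ratios scaling and with the block. Leaving out 1 library gave 1 to 3 calls in the selenocysteine list, 3 to 5 in the glutathione list, 0 to 1 in the KEAP1-NRF2 list, 0 to 1 among endoplasmic reticulum partners and 1 to 2 in the decay list. The block gave 5 lower calls in the glutathione and lipid peroxide list, against 3 without it.

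Signs turned for 6 selenoprotein genes, none of them called. SELENOK was at -0.012 after quantile normalization and -0.015 with median-of-ratios scaling, and SELENOW at -0.013 after quantile normalization. With 1 library left out, log2 fold changes ran from -0.059 to 0.048 for SELENOK, -0.037 to 0.12 for SELENOW, -0.10 to 0.010 for SEPHS2, -0.27 to 0.034 for SELENOM, -9.6e-05 to 0.23 for SELENON and -0.23 to 0.015 for SELENOS. With the replicate block and a pair left out, SELENOK was at -0.021 (pair 1) and -0.019 (pair 2), SELENOW at -0.0093 (pair 1) and -0.026 (pair 4), and SEPHS2 at 0.049 (pair 3). The cause was not tested. TPM keep no read depth, so no counting error can be given.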

Other observations

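Selenoprotein mRNAs can be substrates of nonsense-mediated decay when the UGA is read as a stop, and the genes of that pathway were a further list. Of 14 tested, 2 rose and none fell, 13 estimates were above 0 and the median log2 fold change was 0.19, against 0.029 for all genes, of which 3.45% were called higher and 54.1% had estimates above 0. SMG9 rose from 8.63 ± 1.22 to 15.9 ± 2.23 TPM (± is the SD of 4 libraries; log2 fold change 0.81, limma adjusted p of 0.00900) and SMG6, the endonuclease of the pathway, from 5.13 ± 1.16 to 8.69 ± 1.30 TPM (0.67, limma adjusted p of 0.0371). The SMG6 call was lost without any 1 of 6 libraries, all but CR31B replicate 2 and DMSO replicate 1. UPF1, the helicase of the pathway, stood at 23.9 ± 6.69 TPM with CR31B against 20.6 ± 3.31 TPM with DMSO (0.17, limma adjusted p of 0.655).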
